A study of Rattus norvegicus with 6 samples.

Results

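Inward rectifier potassium channels pass potassium ions more easily into the cell than out of it, and in heart muscle they hold the resting membrane potential and shape the end of the action potential. Their pore subunits are encoded by the Kcnj genes. The Kir2 subfamily carries the strong inward rectifier current of ventricular muscle, the Kir3 subfamily forms channels opened by G protein beta-gamma subunits after vagal or adenosine receptor stimulation, and the Kir6 subfamily joins sulfonylurea receptors of the Abcc genes to form KATP channels, which open when cellular ATP falls. The genes were chosen by detection: every gene whose name on the array starts with Kcnj and whose probe was well above background on at least 3 of 6 arrays, plus Abcc8 and Abcc9. That gave 10 genes with 15 probes, Kcnj2, Kcnj3, Kcnj5, Kcnj8, Kcnj9, Kcnj11, Kcnj12, Kcnj14, Abcc8 and Abcc9, of 17 genes with 24 probes on the array and of 17536 genes tested.

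The arrays held RNA of heart tissue, labelled as whole heart, from 3 rats given AACO solution at 0.386 µg/g daily for 8 weeks and from 3 control rats given an equal amount of double-distilled water. AACO, a formula of Chinese medicine, is not spelled out in the labels. Both groups had undergone TAC, in this field the short name of transverse aortic constriction, which loads the left ventricle, so no unoperated heart is in the comparison, and the rats were killed 24 h after their final dose. The series text calls the animals mice, while the labels give Rattus norvegicus and the probes are placed on the rat genome build rn4, and it speaks of different donors for separate experiments without tying animals to arrays. The p-values thus cover only the spread between these 6 arrays, which may be technical.

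Each value is the log2 of a probe's processed signal minus the 75th percentile of its array, so 0 is the signal at that percentile, and values of different probes are not comparable with each other. On the AACO arrays 70.9% to 72.4% of spots were well above background, against 66.0% to 68.7% on the control arrays, and no spot was saturated. All 7 cardiomyocyte markers were well above background on every array and none was called. All AACO arrays shared 1 slide and scan day and all control arrays another, so the treatment and the slide cannot be told apart. At an adjusted p under 0.05 (limma, Benjamini-Hochberg over all genes tested) 1917 genes differed, which was 10.9% of the genes tested, with 876 higher on the AACO arrays (5%) and 1041 lower (5.94%). The higher genes made up 45.7% of these calls, and 27.8% after normexp background correction, 95.9% without scaling, 77.6% with spike-in scaling and 56.1% with the percentile taken over spots. In whole tissue, fewer cells of a type and less RNA per cell cannot be told apart. Myl7, the atrial myosin light chain, read 5.41, 6.85 and −0.44 on the AACO arrays, against −1.66, −2.26 and −0.85 on the control arrays, and Sln, the atrial calcium pump regulator sarcolipin, read 1.97, 4.43 and 0.21, against −1.05, 0.23 and 0.07. AACO replicates 1 and 2 thus stood apart in Myl7 and Sln, and the results on the 10 channel genes are given with and without them. The other tested atrial markers did not follow. Myl4 read 7.41, 7.34 and 7.42 on the AACO arrays, against 7.48, 7.60 and 7.29 on the control arrays, and Nppa, the atrial natriuretic peptide, read 3.38, 6.07 and 6.48, against 5.61, 5.91 and 7.64.

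Of the 10 channel genes, 3 were higher on the AACO arrays (Kcnj2, Kcnj3 and Kcnj12), none was lower and 7 were not called, beside the 5% and 5.94% of all genes. Kcnj2 passed the detection rule only through the AACO arrays, where it was higher, so the count is a description and supports nothing. An unadjusted p under 0.05 in limma was reached by 6 of the 10, 2 of them lower (Kcnj9 and Kcnj11), beside 5336 of the 17536 genes tested. The AACO and control arrays did not overlap in 7 of the 10, beside 37.4% of all genes. Over the 9 genes above background on all arrays, which leaves out Kcnj2, the median difference was −0.11 on the log2 scale, against −0.02 over all genes tested, with 4 genes above 0 and 5 below.

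**Figure D1:**
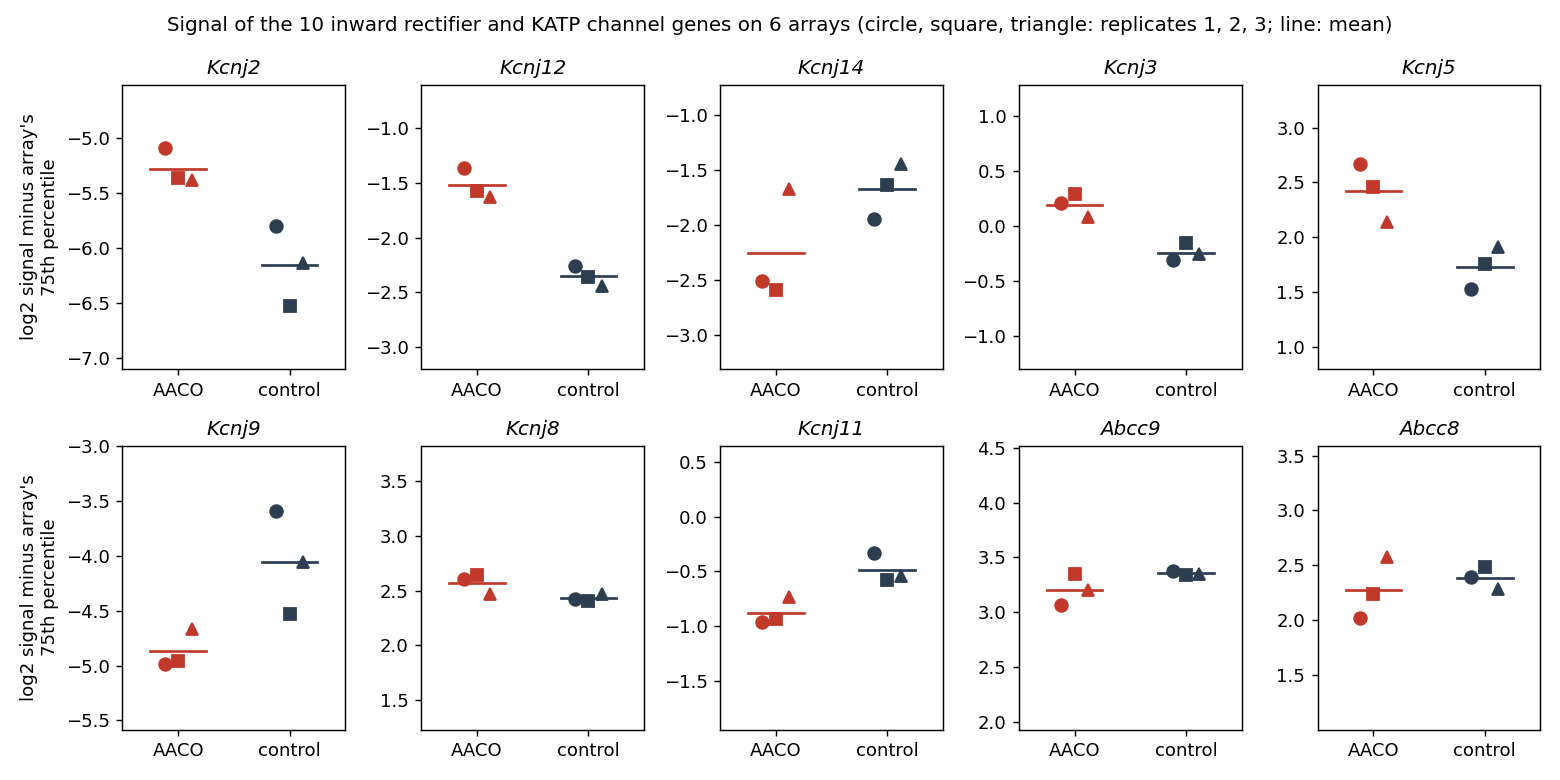
The 10 channel genes on each array, as log2 signal minus the array's 75th percentile, with the AACO arrays left and the control arrays right in each panel and a line at each group's mean (3 arrays each). All panels span the same log2 range. Kcnj12, Kcnj3, Kcnj5 and, narrowly, Kcnj8 show every AACO array above every control array, and Kcnj9 and Kcnj11 every one below. The Kcnj2 points do not overlap either, but that gene was above background on 0 control arrays. Groups did not overlap for 37.4% of all genes.

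Among the strong inward rectifiers, Kcnj12, which encodes a Kir2 pore subunit, was higher on the AACO arrays by 0.83 ± 0.11 on the log2 scale (standard error), a 1.78-fold level with a 95% confidence interval of the log2 difference from 0.55 to 1.103 (limma adjusted p = 0.0126). It read −1.36, −1.58 and −1.63 on the AACO arrays, against −2.26, −2.36 and −2.44 on the control arrays. The spread within each group was small beside the gap between them, with a mean of −1.52 ± 0.14 for AACO and −2.35 ± 0.09 for control (SD, n = 3 each). AACO replicate 3, where Myl7 and Sln were low, also lay above all control arrays. Without AACO replicates 1 and 2 the difference was 0.72 and no gene on the array was called (adjusted p = 0.259), where the 1 AACO array left is assumed to vary like the control arrays. Leaving out AACO replicate 2 alone kept the size at 0.85 but moved the adjusted p to 0.0565, and without any other single array it remained under 0.05.

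Kcnj2 encodes the Kir2 subunit that dominates the resting potassium conductance of ventricular muscle. Its probe was dim, with unscaled processed signals of 33.3, 35.0 and 34.1 on the AACO arrays, against 20.1, 8.39 and 12.1 on the control arrays, and it was well above background on 3 AACO arrays and on 0 control arrays. Scaled, it read −5.09, −5.36 and −5.38 on the AACO arrays, against −5.80, −6.53 and −6.14 on the control arrays. The groups did not overlap and the gene was called higher (adjusted p = 0.0431). No size is given for the difference, because the control level is known only as a bound that lies above the AACO signal. With normexp background correction the sign of the fit turned (adjusted p = 0.373), and with a single array left out the adjusted p lay between 0.0269 and 0.139, under 0.05 only without control replicate 1. Without AACO replicates 1 and 2 it was not called (adjusted p = 0.446).

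The probes of Kcnj2 and Kcnj12 align base for base over related coding sequence, and are shown because their overlap bears on how far the array separates both genes. They are given 5′ to 3′ as the array files hold them, on the plus strand of rn4, with capitals at the 27 of 60 positions at which they differ. The 33 identical positions are 55% of the probe, the highest of 276 pairs among the 24 probes of the family.
Kcnj12, chr10:47214419-47214478: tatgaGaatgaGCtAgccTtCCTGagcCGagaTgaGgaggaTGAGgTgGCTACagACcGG
Kcnj2, chr10:100576110-100576169: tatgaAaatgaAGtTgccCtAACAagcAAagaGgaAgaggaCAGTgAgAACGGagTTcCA
Whether Kcnj12 RNA adds signal at the Kcnj2 probe was not tested.

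Kcnj14, the third detected Kir2 gene, read −2.51, −2.59 and −1.67 on the AACO arrays, against −1.94, −1.63 and −1.44 on the control arrays. AACO replicate 3 lay inside the control range while the other AACO arrays lay below it, and the difference of −0.59 (95% confidence interval −1.24 to 0.07) was not called (adjusted p = 0.204). Without AACO replicate 3 it was −0.88 (adjusted p = 0.0379), and without AACO replicates 1 and 2 it was 0.00 (adjusted p = 0.998). Of the 3 Kir2 genes, Kcnj12 alone was both above background on all 6 arrays and called.

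Kcnj3 and Kcnj5 encode the pair of Kir3 subunits that assemble into the acetylcholine-activated channel of atrial and nodal cells. The brighter Kcnj3 probe read 0.21, 0.29 and 0.09 on the AACO arrays, against −0.31, −0.16 and −0.26 on the control arrays. Every AACO array lay above every control array, and the difference of 0.44 ± 0.10, a 1.35-fold level, was called (95% confidence interval 0.19 to 0.68, adjusted p = 0.0450). The second Kcnj3 probe read −3.30, −3.11 and −3.36 on the AACO arrays, against −4.18, −3.95 and −3.52 on the control arrays, a difference of 0.63 with an adjusted p of 0.0764 in the fit of single probes. Over the 6 fits without 1 array the difference was 0.39 to 0.49 and its adjusted p lay between 0.0429 and 0.143, under 0.05 only without AACO replicate 3.

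Kcnj5 missed the threshold. Its brighter probe read 2.66, 2.46 and 2.14 on the AACO arrays, against 1.52, 1.75 and 1.91 on the control arrays, with no overlap and a difference of 0.69 ± 0.17 (95% confidence interval 0.28 to 1.102, adjusted p = 0.0520). The adjusted p was 0.0475 when the scaling percentile was taken over spots and 0.0346 without AACO replicate 3. The second probe read −3.61, −3.60 and −3.94 on the AACO arrays, against −4.15, −4.27 and −4.02 on the control arrays, a difference of 0.44 (adjusted p = 0.0881 in the fit of single probes). The array files place the starts of both Kcnj5 probes 148938 bases apart on chromosome 8 of rn4, whereas those of the Kcnj3 probes are 1963 bases apart on chromosome 3. Both Kcnj5 probes are assigned to the same transcript, where the second starts at base 623 and the brighter at base 3131. Whether the distant, brighter probe lies in coding sequence was not determined here.

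The coding Kcnj3 probe, which is its brighter one, and the second, dimmer Kcnj5 probe are shown as coding sequence. The Kcnj5 difference of 0.69 came from its brighter probe, which is not shown, and protein was not measured. In the Kcnj5 probe, which lies on the minus strand, capitals mark the codons for glycine, tyrosine and glycine of the potassium selectivity filter, the narrowest part of the pore.
Kcnj3, chr3:37256278-37256337, plus strand: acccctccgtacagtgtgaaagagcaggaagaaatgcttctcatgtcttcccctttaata
Kcnj5, chr8:32083323-32083382, minus strand: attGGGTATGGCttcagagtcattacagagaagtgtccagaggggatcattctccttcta
Compared position by position with the other family probes, this Kcnj5 probe shared most bases with one of Kcnj1, at 24 of the 60 positions (40%). The transcripts were not aligned for this count, so it does not show how alike the genes are. How alike the filter region is in other transcripts of the family was not tested.

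AACO replicates 1 and 2, with the high Myl7 and Sln signals, also had the highest Kcnj3 and Kcnj5 values, while AACO replicate 3 had the lowest of the AACO group. Kcnj12 and Kcnj2 were also lowest on replicate 3 among the AACO arrays, but close to replicate 2 (−1.63 against −1.58, and −5.38 against −5.36). The unscaled Kcnj2 signal was lowest on replicate 1 (33.3). Without AACO replicates 1 and 2 the Kcnj3 difference was 0.33 (adjusted p = 0.447) and the Kcnj5 difference 0.41 (adjusted p = 0.503). With the mean level of Myl7 and Sln as a covariate they were 0.30 (adjusted p = 0.446) and 0.39 (adjusted p = 0.537), while the Kcnj12 difference was 0.78 (adjusted p = 0.205). Of the 5 atrial markers, 4 were tested and none was called, with Myl7, Sln, Myl4 and Nppa differing by 5.53, 2.45, −0.06 and −1.07, and Bmp10 was above background on 1 AACO array and 0 control arrays. The summed level of the atrial list was 7.83 to 8.52 on the AACO arrays and 7.83 to 8.48 on the control arrays, in log2 units. Bright probes weigh most in every summed level given here. In the atrial list the brightest on each array was Myl4 or Nppa, so the sum can hide the Myl7 and Sln differences and does not show equal atrial content. Of 4 ventricular markers, Irx4 and Hey2 were higher, by 0.93 and 1.16, and Myl3 (0.12) and Myl2 (−0.19) were not called. The summed ventricular level was 8.67 to 8.86 on the AACO arrays and 8.58 to 9.02 on the control arrays. Of 4 sinus node markers 2 were tested and none was called, and of 6 nerve and glia markers 1 was higher (Sox10, 1.46). Beside these marker counts, 5% of all genes were called higher and 5.94% lower. What part the cells that express Myl7 and Sln have in the Kir3 differences was not tested.

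**Figure D2:**
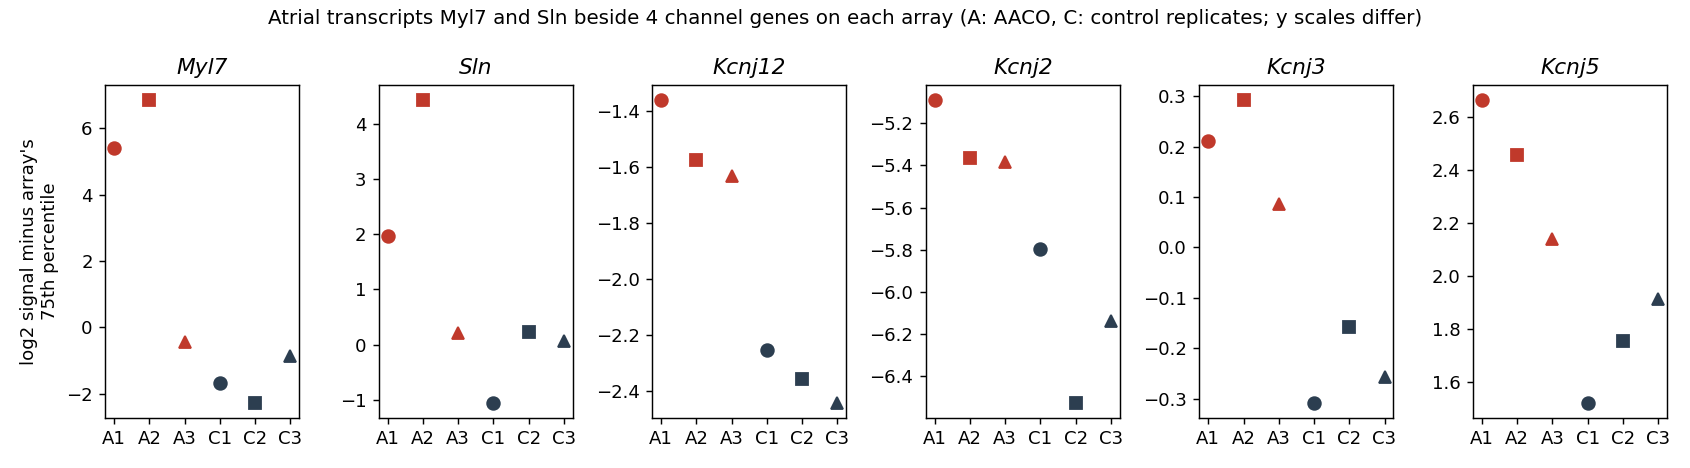
Myl7 and Sln beside Kcnj12, Kcnj2, Kcnj3 and Kcnj5 on the 3 AACO arrays (A1 to A3) and the 3 control arrays (C1 to C3), as log2 signal minus the array's 75th percentile, with a separate scale for each panel. Myl7 and Sln are high on A1 and A2 and near the control arrays on A3. The Kcnj12, Kcnj3 and Kcnj5 values on A3 lie above those of the control arrays. Kcnj2 was above background on 0 control arrays, so its plotted control values are not measured levels.

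Kcnj9, a Kir3 subunit known mainly from brain, gave opposite readings. Its brighter probe, which lies on the minus strand of chromosome 13, read −4.98, −4.96 and −4.67 on the AACO arrays, against −3.59, −4.53 and −4.05 on the control arrays, a difference of −0.81 ± 0.24 (adjusted p = 0.0802). Its other probe read −5.12, −5.60 and −6.29 on the AACO arrays, against −6.52, −6.43 and −6.16 on the control arrays, and was above background on 3 AACO arrays and 0 control arrays. With the control level below background that difference has no size, and it was not called (adjusted p = 0.166 in the fit of single probes). No direction can be given for Kcnj9, and it was called lower only without control replicate 2 (−1.05, adjusted p = 0.0368) and with normexp background correction. Without AACO replicates 1 and 2 the brighter probe differed by −0.61 (adjusted p = 0.602).

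**Figure D3:**
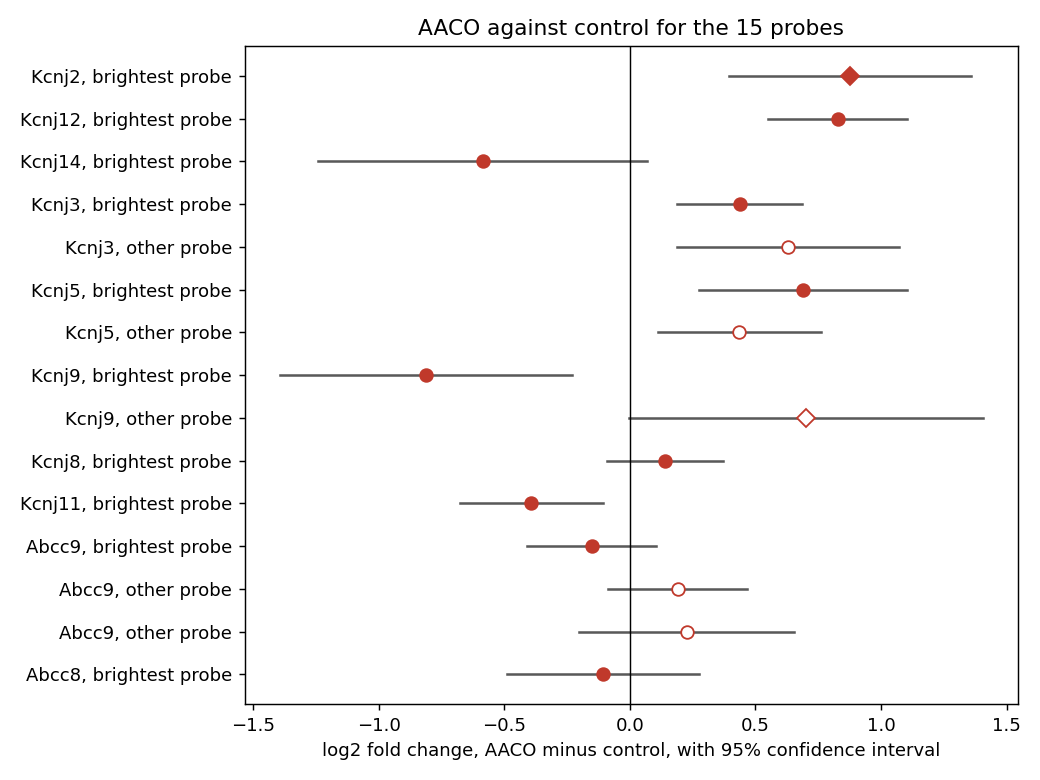
Log2 differences of AACO minus control for the 15 probes of the 10 genes, as points with 95% confidence intervals from limma (3 arrays per group), filled for the probe that stands for its gene and open for other probes. Diamonds mark the Kcnj2 probe and the second Kcnj9 probe, above background on 0 control arrays, whose plotted sizes are fitted values only, and both probes of Kcnj3 and of Kcnj5 lie above 0.

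The 4 KATP genes were not called in either direction by limma, and of them only Kcnj11 had an unadjusted p under 0.05. Kcnj11, the pore of the KATP channel of ventricular muscle and of insulin-secreting cells, read −0.96, −0.94 and −0.73 on the AACO arrays, against −0.33, −0.58 and −0.54 on the control arrays. The AACO arrays lay below the control arrays with a difference of −0.39 ± 0.12 (95% confidence interval −0.68 to −0.11, adjusted p = 0.0819), although without any scaling between arrays, where the median of all genes was 0.52, it was 0.15. Relative to the median of all genes it was −0.37 both without scaling and as reported, which is fixed, because scaling shifts all genes of an array alike. Without AACO replicates 1 and 2 the difference was −0.25 (adjusted p = 0.604). Abcc8, the sulfonylurea receptor that pairs with this pore in islets and, in mice, in atrial muscle, read 2.02, 2.24 and 2.57 on the AACO arrays, against 2.39, 2.49 and 2.28 on the control arrays. Its groups overlapped, with a difference of −0.11 and a 95% confidence interval of −0.49 to 0.27 (adjusted p = 0.678). The difference was 0.44 without scaling and 0.067 with spike-in scaling. Relative to the median of all genes it was −0.09 in both and as reported, which is likewise fixed. The sign also turned without AACO replicate 1 (0.0205), and without AACO replicates 1 and 2 the difference was 0.19 (adjusted p = 0.670).

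Kcnj11 and Abcc8 are neighbouring genes, with 0 coding genes between them in the RefSeq table, and the array reads both at the end of the coding sequence. Their probes are given on the minus strand of rn4, with the stop codon in capitals.
Kcnj11, chr1:96616585-96616644: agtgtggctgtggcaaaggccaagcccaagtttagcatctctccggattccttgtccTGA
Abcc8, chr1:96622574-96622633: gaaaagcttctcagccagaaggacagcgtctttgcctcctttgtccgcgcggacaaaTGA
Of 4 islet markers, Gcg and Chga were not above background on any array, and Ins1 and Ins2 differed by −0.17 and −0.18 without being called. The summed islet level was −2.99 to −2.94 on the AACO arrays and −2.85 to −2.71 on the control arrays. Groups likewise did not overlap for 37.4% of all genes.

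Kcnj8 and Abcc9 encode the pore and the sulfonylurea receptor of the vascular KATP channel, which is abundant in pericytes and smooth muscle, and Abcc9 also serves the ventricular channel. Kcnj8 read 2.61, 2.64 and 2.47 on the AACO arrays, against 2.43, 2.41 and 2.47 on the control arrays. The lowest AACO array lay just above the highest control array, and the difference of 0.14 had a 95% confidence interval of −0.09 to 0.37 (adjusted p = 0.356). It was 0.04 without AACO replicates 1 and 2 (adjusted p = 0.930). The brightest Abcc9 probe read 3.07, 3.35 and 3.20 on the AACO arrays, against 3.38, 3.34 and 3.35 on the control arrays, with overlap and a difference of −0.15 (95% confidence interval −0.41 to 0.10, adjusted p = 0.369). Its other probes differed by 0.19 and 0.23, neither called, and with normexp the brightest probe differed by 0.048, so the sign depends on the probe and the background correction. Without scaling and with spike-in scaling it was 0.39 and 0.023. Relative to the median of all genes it was −0.13 in both and as reported, which is again fixed by the shift of all genes alike. It was −0.16 without AACO replicates 1 and 2 (adjusted p = 0.666). Kcnj8 and Abcc9 are also neighbours with 0 coding genes between them.

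The mural cell markers did not all move one way beside them. Of 7 pericyte markers 1 was lower (Higd1b, −0.71) and none higher, with 5 of 7 differences below 0 and a summed level of 4.27 to 4.42 on the AACO arrays against 4.55 to 4.59 on the control arrays. Of 5 smooth muscle markers 1 was higher (Smtn, 0.51), with all 5 differences above 0 and a summed level of 4.81 to 5.14 on the AACO arrays against 4.34 to 4.64 on the control arrays. None of the 5 endothelial markers was called, and all 5 differences lay below 0. Of 5 macrophage markers 4 were lower, with a summed level of 0.19 to 0.26 on the AACO arrays against 1.11 to 1.41 on the control arrays, and none of 4 fibroblast markers was called. These counts stand beside 5% of all genes called higher and 5.94% called lower, and groups did not overlap for 37.4% of all genes. What part these cells have in the Kcnj8 and Abcc9 readings was not tested.

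The other 7 genes of the family failed the detection rule. Kcnj1, Kcnj13, Kcnj15 and Kcnj16, known chiefly from kidney and other epithelia, were not above background on any array, Kcnj4 (Kir2) and Kcnj6 (Kir3) were so on 1 AACO array each, and Kcnj10, a glial channel gene, on 1 control array. At the edge of the rule, Kcnj2 had 3 arrays above background, and the Kcnj genes just outside it had 1. Several of these genes lie beside a detected one with 0 coding genes between them: Kcnj16 beside Kcnj2, Kcnj1 beside Kcnj5 and Kcnj10 beside Kcnj9.

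The genes that carry the vagal signal to the Kir3 channel were called in both directions. Of 15 tested genes of the inhibitory G protein pathway, 2 were higher and 2 lower, with a median difference of −0.09. Chrm2, the muscarinic receptor that opens the channel, read −0.27, −0.76 and −1.004 on the AACO arrays, against −1.88, −1.76 and −1.59 on the control arrays, without overlap and higher by 1.07 ± 0.20 (adjusted p = 0.0271), and its second probe was higher by 0.91 (adjusted p = 0.0242 in the fit of single probes). Rgs6, which speeds the channel's closing, was higher by 0.77 at its brighter probe (adjusted p = 0.0352) and lower at its other probe (−1.02, adjusted p = 0.0277 in the fit of single probes), so no direction can be given. Gnai3, an inhibitory alpha subunit, was lower (−0.80, adjusted p = 0.0178), as was Gnb1, a beta subunit (−0.43, adjusted p = 0.0335). Adora1, the adenosine receptor that opens the same channel, was singled out after its values were seen: it differed by 0.58 (adjusted p = 0.0531) at one probe and by −0.42 at the other.

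Among 13 tested partners of Kir2 and KATP channels (scaffolds, lipid kinases and energy-transfer enzymes), 1 was higher and none lower, with a median difference of 0.15. This was Ank2, ankyrin B, which anchors the Kir6 pore at the membrane. Its probe was well above background on 3 AACO arrays and on 0 control arrays, at −4.82 ± 0.43 on the AACO arrays and −6.64 ± 0.41 on the control arrays (SD, n = 3 each), which gives at least a 1.25-fold level of the means (limma adjusted p = 0.0164). Ank2 thus passed the detection rule only through the AACO arrays, so its call is a description and supports nothing. The bound sets the AACO mean against, on each control array, the dimmest signal that still counted as well above background. It does not hold for each array: AACO replicate 3 (−5.30) lay below that signal on control replicates 2 and 3 (−5.20 and −4.84), and above it on control replicate 1 (−5.37). Ckm and Ckmt2, the creatine kinases of the heart, differed by 0.02 and 0.18, and Ak1, adenylate kinase, by 0.14, none of them called.

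Of 13 tested potassium channel genes outside the family, 3 were higher and 1 lower, with a median difference of 0.33. Kcnh2, the pore of the rapid delayed rectifier, was higher by 1.32 ± 0.12 (adjusted p = 0.00633), Kcna7 by 0.49 (adjusted p = 0.0414) and the stretch-activated channel gene Kcnk2 by 1.30 (adjusted p = 0.0317). A second Kcnk2 probe differed by 0.32 without being called, and the third was above background on 3 AACO arrays and 0 control arrays, so its difference has no size. In the same list Kcnk3, a background acid-sensitive channel gene, was lower (−0.67, adjusted p = 0.0450). These lists are described by their counts beside the 10.9% of all genes called.

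By the root mean square difference of centred log2 values over the 6 arrays, the genes whose profile was most like that of Kcnj12 were Sox4 (0.0402), Slc25a23 (0.0599) and Sin3a (0.0690). For Kcnj2 they were Fabp12 (0.0912), Mcoln3 (0.0953) and Wfdc1 (0.113), and for Kcnj3 they were C6h14orf28 (0.0175), Nat14 (0.0344) and Anapc4 (0.0374). These genes were selected for their likeness over the same 6 arrays, so their differences are no separate evidence.

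Across the processing choices Kcnj12 was the steadiest of the called genes by count. Its difference passed the threshold in 18 of 21 alternatives and lay between 0.51 and 1.37, never turning sign. Kcnj3 passed in 12 of 21, and Kcnj5, not called as reported, passed in 9 of 21. Kcnj2 passed in 9 of 20, but its control arrays were below background, so its count supports nothing. The alternative that needs signal above background on all 6 arrays leaves Kcnj2 out. Kcnj3 (0.30 to 0.98) and Kcnj5 (0.39 to 1.24) did not turn sign either. The highest value of Kcnj12, Kcnj3 and Kcnj5 came without scaling between arrays, where the median of all genes was itself 0.52.

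**Figure D4:**
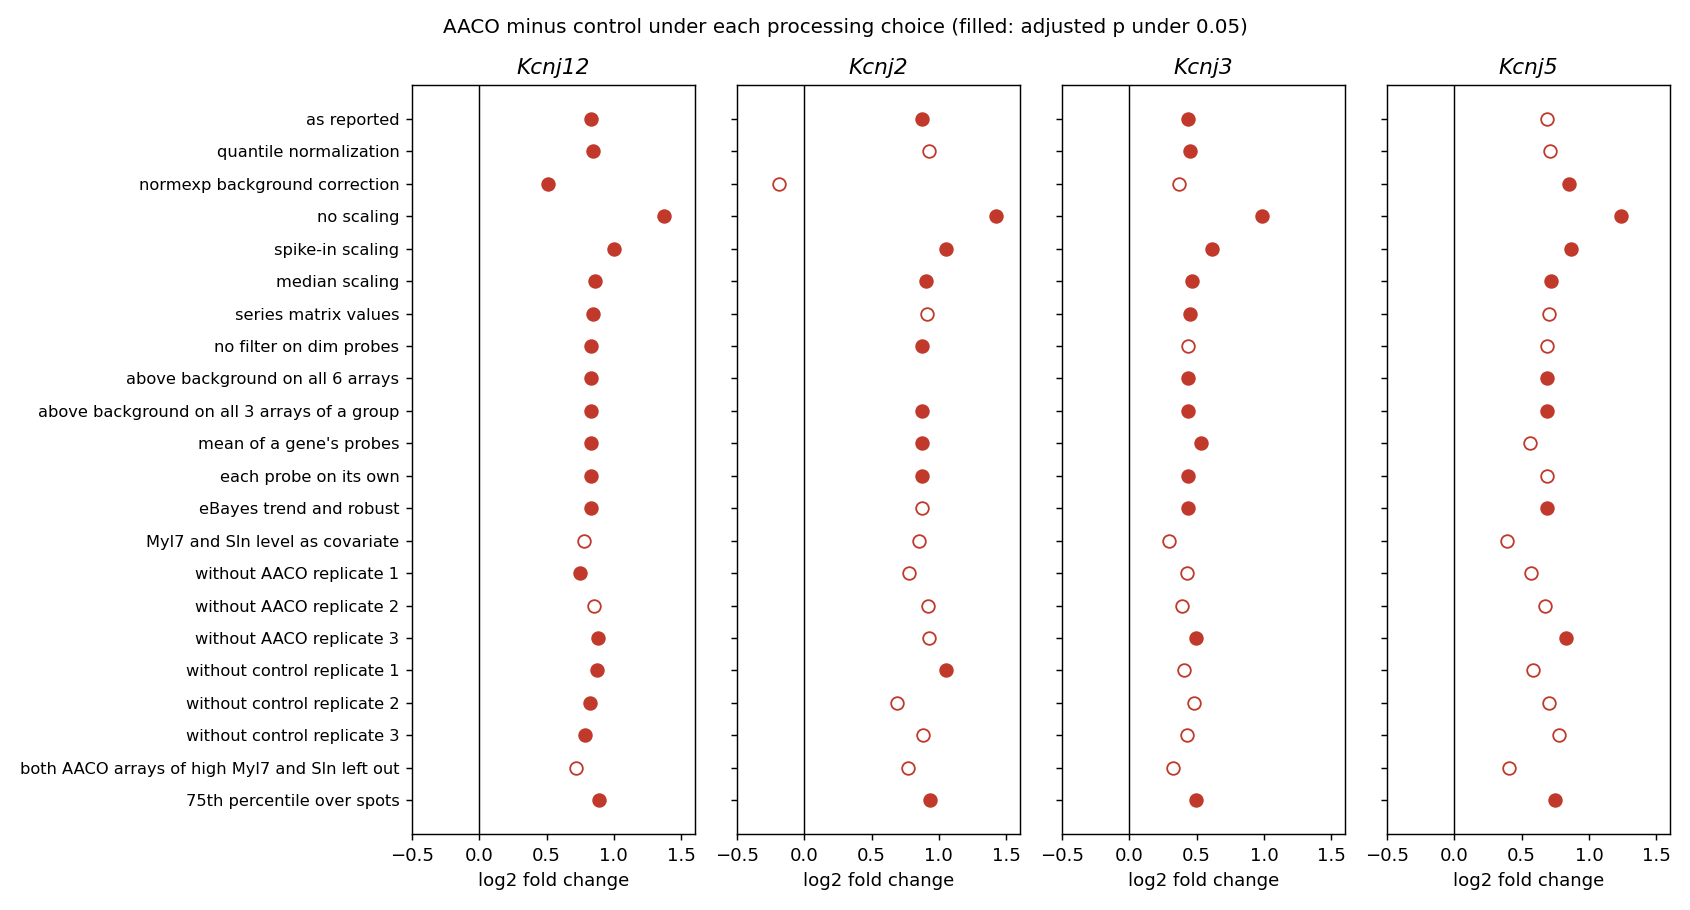
Log2 differences of AACO minus control for Kcnj12, Kcnj2, Kcnj3 and Kcnj5 under each processing choice, one row per choice, filled where limma's adjusted p was under 0.05 and empty where it was not; the row for arrays all above background has no Kcnj2 point. Kcnj12 stays between 0.51 and 1.37, and the Kcnj2 points, with control arrays below background, are fitted values whose sign turns with normexp (−0.19).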

How the data were processed

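RNA came from a mirVana kit, and 0.2 ug per array was labelled with Cy3, per the labels' protocols. The deposited intensity of a spot is the processed signal of Agilent Feature Extraction 10.7.1.1, background-corrected and not scaled between arrays, per the file headers. The series matrix that the authors deposited gives log2 values, whose normalization is not given in the sources used here. Against the logged scanner values its columns gave r of 0.998 to 0.99998 and shared a median of 6.77, so scale and direction were taken as those of the scanner values. It was used as an alternative only.

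Control spots and flagged spots were left out, spots of a probe were averaged on the log2 scale, and each array's 75th percentile over non-control probes was subtracted. A probe was tested where at least 0.5 of its spots passed the scanner's background flag on 3 or more of 6 arrays, which kept 20112 of 30367 probes, and a gene was represented by its tested probe of highest mean signal. AACO was compared with control by limma 3.58.1 in R 4.3.3 (lmFit, eBayes; two-sided, adjusted by Benjamini-Hochberg over 17536 genes), tested on simulated data. Positions of probes were read from the array files (rn4), and neighbours come from the RefSeq table of another assembly, GRCr8, which lists all 17 genes. The number of arrays limits the precision. The genes to be named were those of the family, those of each list past the threshold, and the 3 most alike to each called gene. The members and lists were chosen with earlier results of these data known.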

Additional observations from a re-analysis of the deposited data

How the results depend on the processing

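The results were recomputed under 21 alternatives. Slide could not be fitted as a block, because each slide held 1 group. The percentile over spots and the removal of both AACO arrays of high Myl7 and Sln signal were chosen after seeing the data. Without both of those arrays, and likewise with the mean of Myl7 and Sln as covariate, 0 genes were called higher and 0 lower over all genes and among the channel genes, while limma's unadjusted p was under 0.05 for 2222 and 2277 genes. Over the fits without 1 array, 104 to 959 genes were higher and 189 to 1225 lower, with 0 to 3 channel genes higher and 0 to 1 lower. Genes called lower numbered 2024 with normexp, 232 without scaling, 445 with spike-in scaling and 2978 with no filter on dim probes; genes called higher numbered 5493 without scaling and 1543 with spike-in scaling. The median of all genes moved to 0.52 without scaling, 0.15 with spike-in scaling, −0.10 with normexp and −0.14 with no filter. Channel genes called lower numbered 2 with normexp (Kcnj9 and Kcnj11), and 5 were called higher without scaling. Signs turned for Kcnj2 (−0.19) and Abcc9 (0.048) with normexp, and for Abcc9 (0.088) with the mean of its probes. They turned for Abcc8 (0.44), Abcc9 (0.39) and Kcnj11 (0.15) without scaling, and for Abcc8 (0.067) and Abcc9 (0.023) with spike-in scaling. Both of these settings shift all genes of an array alike, so a difference relative to the median of all genes cannot change under them. Signs also turned for Abcc8 (0.18) and Kcnj14 (0.017) with the covariate, for Abcc8 among the fits without 1 array (−0.25 to 0.0205, above 0 without AACO replicate 1), and for Abcc8 (0.19) and Kcnj14 (0.0025) without both AACO arrays of high Myl7 and Sln signal. None of these turned values was called, and the cause was not tested. Dim probes limit the reading of Kcnj2, Kcnj9 and Ank2, whose signals lay near background.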
